A study of Sus scrofa with 4 samples.

Results

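The genes described here encode inflammatory cytokines of the IL1, IL6 and TNF group, read in spleen RNA of miniature pigs. Members were IL1A, IL1B, IL1RN, IL6, IL10, IL18, TNF and CXCL8, taken by name, and every array probe whose accession was a pig RefSeq transcript of one of them was used. Of the 8 genes, 7 had a named probe, among 3020 genes that could be named on the array. They had 11 probes among 43603, with 2 probes each for IL18, IL6, TNF and IL10 and 1 each for IL1A, IL1B and CXCL8. No probe could be named for IL1RN with the reference table used, so this antagonist was not analysed here.

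The 4 arrays carried Cy3-labelled total RNA of whole spleen from Minnesota miniature swine, 3 from wild-type (WT) animals and 1 from an animal whose genotype is labelled IL2RG +/-. The study made its mutant animals by cutting IL2RG with TALENs in cultured cells and transferring nuclei of the edited cells, and it calls them monoallelic knockouts, so the mutant array is called KO. IL2RG lies on the X chromosome and encodes the common gamma chain, a subunit that IL2 and several other lymphocyte cytokines need for signalling. The labels give no age or sex and do not say whether the WT arrays came from separate animals, so p-values measure the spread between these arrays, which may be technical. KO and WT 1 shared slide 1, and WT 2 and WT 3 shared slide 2. With 1 KO array, all spread comes from WT. Unless stated, every value is a log2 signal from which the log2 of the array's 75th percentile was subtracted, so that 0 stands for that percentile, and differences are KO minus the WT mean.

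IL1A and IL1B are the ligands of the IL1 receptor, and both drive fever, endothelial activation and further cytokine production. IL18 is a relative of IL1B that is also matured by caspase-1 in the inflammasome. TNF and IL6 are released early by activated macrophages, CXCL8 is the chemokine that draws neutrophils, and IL10 restrains the cells that make the others. Transcription of most of these genes is raised by NF-κB in activated macrophages, which are abundant in the red pulp of the spleen.

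The KO array gave the highest of the 4 values for all 7 genes and for all 11 probes. KO lay above every WT array for 27% of the 33469 probes tested and for 38.1% of the 2738 named genes tested. It lay below them for 0 of the 11 probes, beside 34.9% of all probes and 24.1% of named genes, and by at least 2-fold for 4.2% and 3.03%. The differences ran from 1.04 for IL1A to 8.44 for CXCL8, with a median of 1.82, against a median of -0.11 over all probes tested and 0.078 over named genes. KO stood at least 2-fold above every WT array for 4 genes, CXCL8, IL1B, IL18 and TNF, a call made for 3.42% of probes and 7.34% of named genes. No gene passed the limma threshold of an adjusted p of 0.05 with a 2-fold difference, and neither did any probe of the array (0%). All 7 genes were at least 2-fold above the WT mean, as were 7.71% of probes and 14% of named genes, and all 7 also had an unadjusted limma p below 0.05, which held together with a 2-fold higher value for 4.46% of probes and 9.31% of named genes. The same call for lower values was made for 0 cytokine probes, 5.01% of all probes and 3.36% of named genes. The count of 7 higher genes became 4 without WT 2 and 4 without WT 3, with CXCL8, IL1B, IL18 and TNF remaining in both, and the call was then made for 2.13% and 2.55% of all probes.

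**Figure D1:**
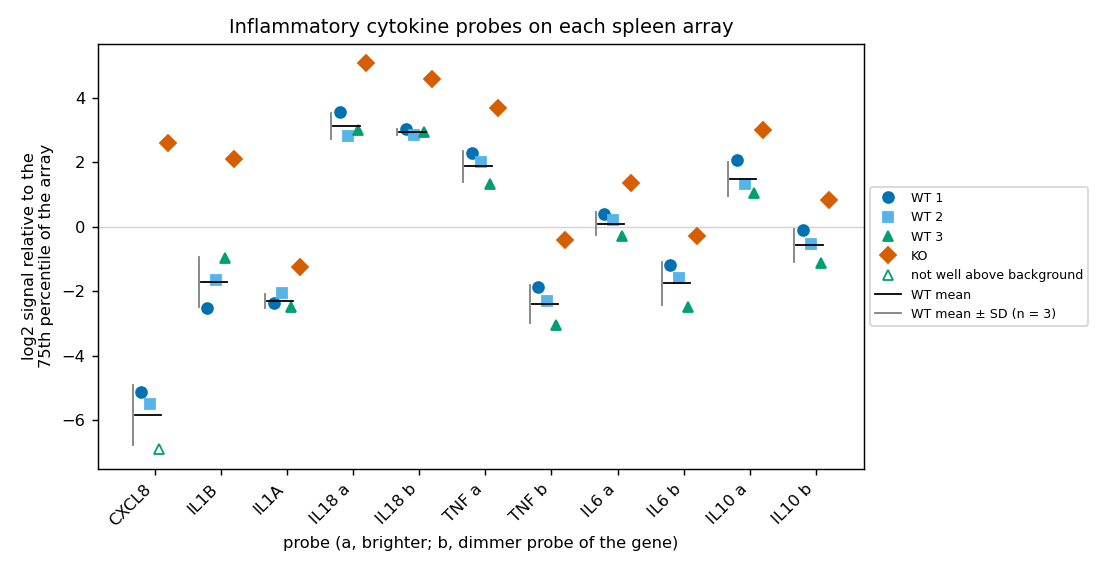
Log2 signal of the 11 cytokine probes on each array on the scale of the text, with the WT mean and SD (n = 3). The KO value is the highest of the 4 on each probe, and the open symbol is the CXCL8 spot of WT 3, which was not well above background.

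CXCL8 had the largest difference. Its probe, A_72_P232367, gave processed signals of 18.3, 17.97 and 6.83 in WT 1 to WT 3 and 3881 in KO. The WT spots were close to background, and the spot on WT 3 was not well above it, whereas the KO spot was bright. On the log2 scale the values were -5.13, -5.51 and -6.91 in WT and 2.59 in KO, a WT mean of -5.85 ± 0.94 (SD, n = 3). Against WT 1, the WT array with the highest CXCL8 value and the one on the same slide, KO was 211-fold higher. The fitted difference from the WT mean was 8.44 ± 0.81 (SE), which limma did not call (adjusted p = 0.284), but only 2 of the 3 WT arrays measured the gene above background, so the size of this value is uncertain. It was 5.69 under normexp background correction, with a direction that did not turn. The error that the extraction software gives for a spot was between 20.2% and 47.9% for CXCL8 on the WT arrays, and between 10% and 10.5% for every other cytokine probe on every array. Without WT 3 the difference was 7.91.

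IL1B was next. Its probe, A_72_P441479, was well above background on all 4 arrays, with signals of 111, 261 and 419 in WT 1 to WT 3 and 2770 in KO. The log2 values were -2.52, -1.64 and -0.97 in WT and 2.10 in KO. The WT mean was -1.71 ± 0.78 (SD, n = 3), and the difference was 3.81 ± 0.69 (SE), or 14.0-fold (limma, adjusted p = 0.360). The WT arrays were themselves up to 2.94-fold apart, and KO was 8.39-fold above the highest of them. Within slide 1, where WT 1 was the lowest WT array, KO was 24.6-fold above WT 1. IL1A, the other ligand of the same receptor, differed far less. Its probe, A_72_P165276, gave log2 values of -2.36, -2.06 and -2.48 in WT and -1.25 in KO. The difference was 1.04 ± 0.32 (SE), or 2.06-fold (limma, adjusted p = 0.427), and KO exceeded the highest WT array by 1.75-fold.

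IL18 was read by 2 probes. The brighter one, A_72_P232887, gave signals of 7567, 5728 and 6607 in WT and 21746 in KO, which correspond to log2 values of 3.56, 2.81 and 3.01 in WT and 5.07 in KO. The difference was 1.95 ± 0.41 (SE), or 3.85-fold (limma, adjusted p = 0.387). The dimmer one, A_72_P652365, spread little in WT, at 3.02, 2.85 and 2.94, and read 4.57 in KO. Its difference was 1.63 ± 0.27 (SE), or 3.10-fold (limma, adjusted p = 0.330). KO was at least 2.85-fold above the highest WT array on both probes, which read the same RNA of 1 KO array.

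TNF gave similar sizes on its 2 probes. On the brighter one, A_72_P211447, the signals were 3124, 3268 and 2064 in WT 1 to WT 3 and 8328 in KO, and the log2 values were 2.29, 2.00, 1.33 and 3.69. The difference was 1.82 ± 0.48 (SE), or 3.52-fold (limma, adjusted p = 0.410). The dimmer probe, A_72_P538206, gave -1.87, -2.30 and -3.04 in WT and -0.42 in KO, which was higher by 1.98 (limma, adjusted p = 0.414). The order of the 4 arrays was the same on both probes once scaled, with WT 3 lowest and KO highest.

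IL6 was higher by a smaller margin. On its brighter probe, A_72_P177826, the log2 values were 0.38, 0.20 and -0.28 in WT and 1.36 in KO, and the signals were 835, 937, 673 and 1656. The difference was 1.26 ± 0.39 (SE), or 2.39-fold (limma, adjusted p = 0.429). The dimmer probe, A_72_P680394, gave -1.17, -1.60 and -2.49 in WT and -0.27 in KO, which was higher by 1.48 ± 0.61 (SE). It was the cytokine probe with the weakest evidence, at an unadjusted limma p of 0.0739. KO exceeded the highest WT array by less than 2-fold on both, at 1.97-fold and 1.87-fold.

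IL10, the cytokine of the group that restrains inflammation, was higher as well. On the brighter probe, A_72_P185331, the signals were 2687, 2060 and 1688 in WT and 5155 in KO, and the log2 values were 2.07, 1.34, 1.04 and 3.00. The difference was 1.51 ± 0.51 (SE), or 2.86-fold (limma, adjusted p = 0.434). The dimmer probe, A_72_P440601, gave -0.086, -0.52 and -1.12 in WT and 0.83 in KO, which was higher by 1.41. As for IL6, KO was less than 2-fold above the highest WT array, at 1.90-fold and 1.89-fold.

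**Figure D2:**
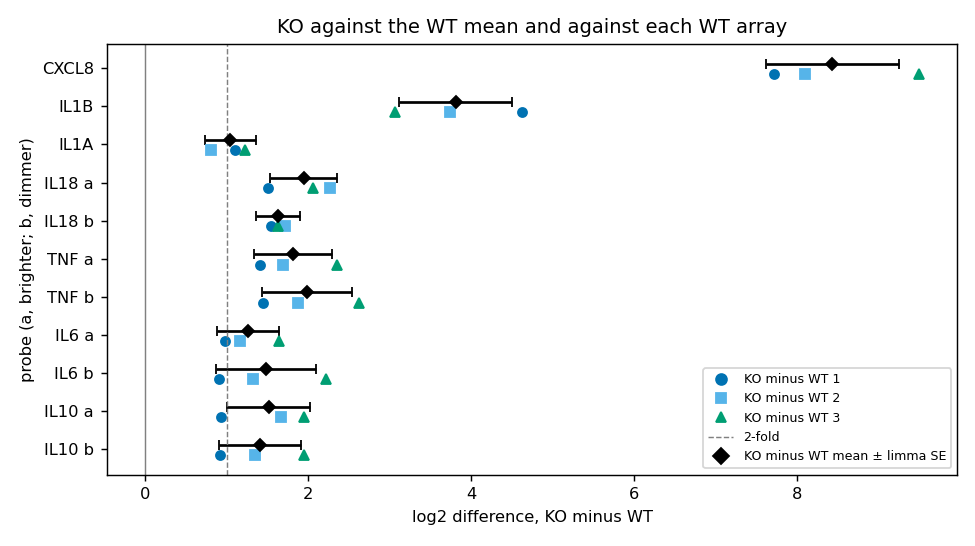
Log2 difference of each cytokine probe, as KO minus the WT mean with the limma standard error (black) and as KO minus each WT array (coloured). CXCL8 and IL1B stand apart from the other probes, and every point lies above 0.

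The WT arrays differed among themselves, and not in the same way for each gene. WT 1 was the highest WT array for 5 of the 7 genes (CXCL8, IL18, TNF, IL6 and IL10), WT 2 for IL1A and WT 3 for IL1B. Since WT 1 shared the slide with KO, the comparison within slide 1 gave smaller values for those 5, at 7.72 for CXCL8, 1.51 for IL18, 1.40 for TNF, 0.98 for IL6 and 0.93 for IL10, and larger ones for IL1B, at 4.62, and IL1A, which was 2.15-fold above WT 1. All 7 differences stayed positive there, and 5 of 7 reached 2-fold, as 7.94% of probes and 13.4% of named genes did. With the slide as a block, IL1A, IL1B, IL18 and CXCL8 kept an unadjusted limma p below 0.05 and a 2-fold difference, 4 of 7 genes, beside 5.74% of all probes.

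Ratios between genes on one array do not depend on the value subtracted from the whole array, although quantile normalisation and normexp can change them. IL10 was taken as the base. These ratios were chosen after the values had been seen and are given with no test. The log2 ratio of IL1B to IL10 was -4.59, -2.98 and -2.01 in WT and -0.90 in KO, so that it was 4.92-fold higher in KO than the WT mean. For CXCL8 it was -7.20, -6.84 and -7.95 in WT and -0.41 in KO. For IL6 it was -1.69, -1.14 and -1.33 in WT and -1.64 in KO, and for IL1A it was -4.43, -3.39 and -3.52 in WT and -4.25 in KO, so KO was inside the WT range for both. TNF and IL18 lay narrowly above it, by 0.026 and 0.11. CXCL8 and IL1B thus differed in KO by more than IL10 did on the same array, while the ratios of IL6 and IL1A to IL10 were within the WT spread.

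Markers of monocytes and macrophages were higher in KO along with the cytokines. In bulk spleen RNA, more cells of a type and more RNA per cell cannot be told apart. Of 12 listed markers 8 were measured, all 8 above every WT array, and 7 of them at least 2-fold above. These calls were made for 38.1% and 7.34% of named genes. Their summed signal, in multiples of the 75th percentile of the array, was 99.2 to 125 in WT and 435 in KO. All 8 were flagged well above background on every array. The largest differences were 3.99 for LYZ (lysozyme), 3.89 for FCGR1A (an Fc receptor), 3.25 for MRC1 (the mannose receptor) and 3.17 for CD163 (the haemoglobin scavenger receptor). FCGR1A was dim on WT 2 and WT 3, at signals of 25.6 and 19.6 with spot errors of 17.3% and 19.3%. The size of its difference, which enters the marker mean below, is thus uncertain. CD14, the coreceptor for lipopolysaccharide, differed by 3.08. The remaining markers, TLR4, SIRPA and AIF1, differed less, by 1.56, 1.32 and 0.83. CD68, CSF1R, ADGRE1 and MARCO had no named probe. The mean log2 value of the 8 markers was 1.74, 1.39 and 1.05 in WT and 4.03 in KO, which was higher by 2.64, and 2.29 within slide 1.

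Set against that mean on the same array, the cytokines took different positions. The ratio of IL10 to the marker mean was 0.33, -0.058 and -0.0079 in WT and -1.04 in KO. IL6, IL1A, TNF and IL18 likewise had KO below all WT arrays in this ratio, with differences of -1.38, -1.59, -0.82 and -0.69. The sign depends on the markers taken. Each of these cytokines differed from its own WT mean by more than AIF1 did, and IL18 and TNF by more than SIRPA and TLR4 as well. For IL1B the ratio was -4.26, -3.04 and -2.02 in WT and -1.93 in KO, 0.086 above WT 3. For CXCL8 it was -6.87, -6.90 and -7.96 in WT and -1.45 in KO, which was 5.43 above the highest WT array, and the WT 3 value rests on the dim spot. The part of the macrophage markers in these differences was not tested.

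**Figure D3:**
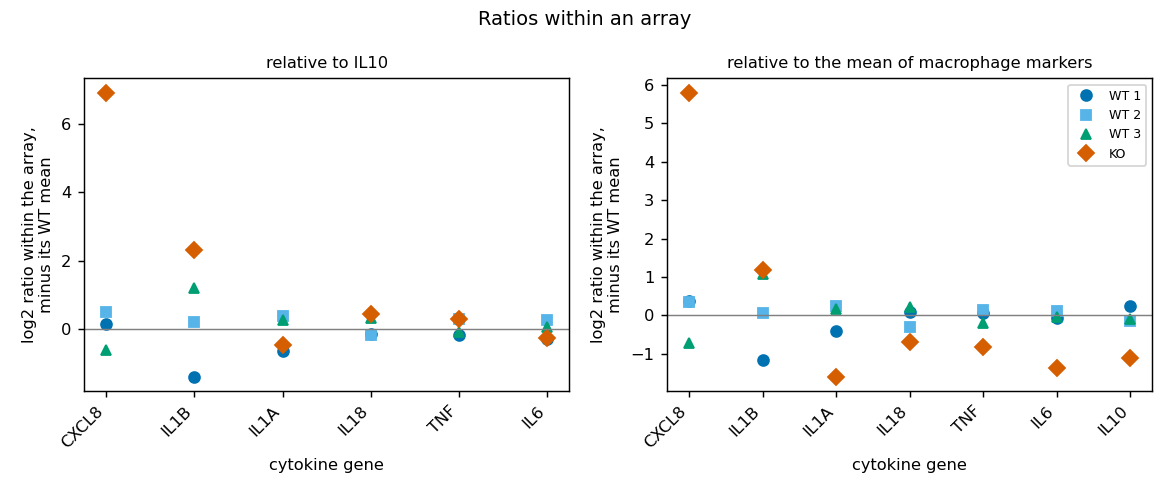
Log2 ratio of each cytokine gene to IL10 (left) and to the mean of 8 macrophage markers (right) on the same array, minus the WT mean of that ratio. KO lies far above WT for CXCL8 in both panels, and below all WT arrays for IL1A, IL18, TNF, IL6 and IL10 on the right.

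Markers of other cell types were mixed. Neutrophil markers, of which 5 of 12 were measured, had summed signals of 3.27, 16.9 and 101 in WT 1 to WT 3 and 15.8 in KO. KO was thus within the wide WT range, although it was above WT 1 on the same slide for all 5, with a median difference of 3.17. IL1B was lowest on WT 1 and highest on WT 3 among WT, in the same order as this sum and as 4 of the 5 markers, while MMP9 was highest on WT 1. Their part in the result was not tested. T cell markers (7 measured of 12) had a median difference of 0.25 and NK cell markers (4 of 7) of 0.24, both negative within slide 1, at -0.15 and -0.96. Within the T cell list, CD4, CD2 and CD8A lay above all WT arrays, at differences of 1.73, 1.58 and 1.78, and CD4 did so by more than 2-fold. The others, CD3D, CD3G, CD3E and LCK, lay inside the WT range, at differences of 0.25, 0.068, -0.53 and -0.32. In the endothelial and stromal list of 5 measured genes, 1 was higher and 4 were lower, with a median of -0.030. The higher gene, DCN, a matrix proteoglycan, was at least 2-fold above all WT arrays, at 1.31. VWF was at least 2-fold below all WT arrays, at -2.76, and CDH5 lay below them as well, at -0.97. The erythroid and platelet lists had medians of -2.33 and -1.41, but of 1.51 and 0.037 within slide 1. In both lists the median level was lowest on WT 1 among the WT arrays. KLF1, an erythroid factor, was -4.68, 4.06 and 4.38 in WT and -3.17 in KO. Among the measured B cell markers, MS4A1 and CD79A were lower in KO, with differences of -4.92 and -4.12, and CD72 was higher, at 1.49. Control genes (5 measured of 10) had a median of 0.38. Of the splenic genes listed, HMOX1 and VCAM1 were measured and well above background on all arrays, and the defining factors TLX1 and SPIC had no named probe. IL2RG was lowest on KO on both of its probes, at differences of -0.77 and -2.12, neither called by limma (adjusted p = 0.578 and 0.403).

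The genes around these cytokines were read from lists of receptors, processing enzymes, signalling proteins and response genes. Of 162 listed genes, 66 were tested. In KO, 54 were higher and 12 lower than the WT mean, where 43.1% of probes and 54.7% of named genes were higher. KO lay above all WT arrays for 45 of the 66, and for 38.1% of named genes. KO was at least 2-fold above every WT array for 25 and at least 2-fold below for 0, against 7.34% and 3.03% of named genes. Their median difference was 0.86, or 0.92 within slide 1. None passed limma after adjustment (the smallest adjusted p was 0.272), and 24 were called as 2-fold higher at an unadjusted p below 0.05. The 66 tested genes included CSF2, which was well above background on KO alone. Over the 59 of them well above background on all arrays, 50 were higher than the WT mean and 43 lay above all WT arrays. KO was at least 2-fold above every WT array for 23 of the 59, and their median difference was 0.95. The lists of other IL1 family ligands and of factors of cytokine mRNA decay had 0 named genes of 7 each.

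**Figure D4:**
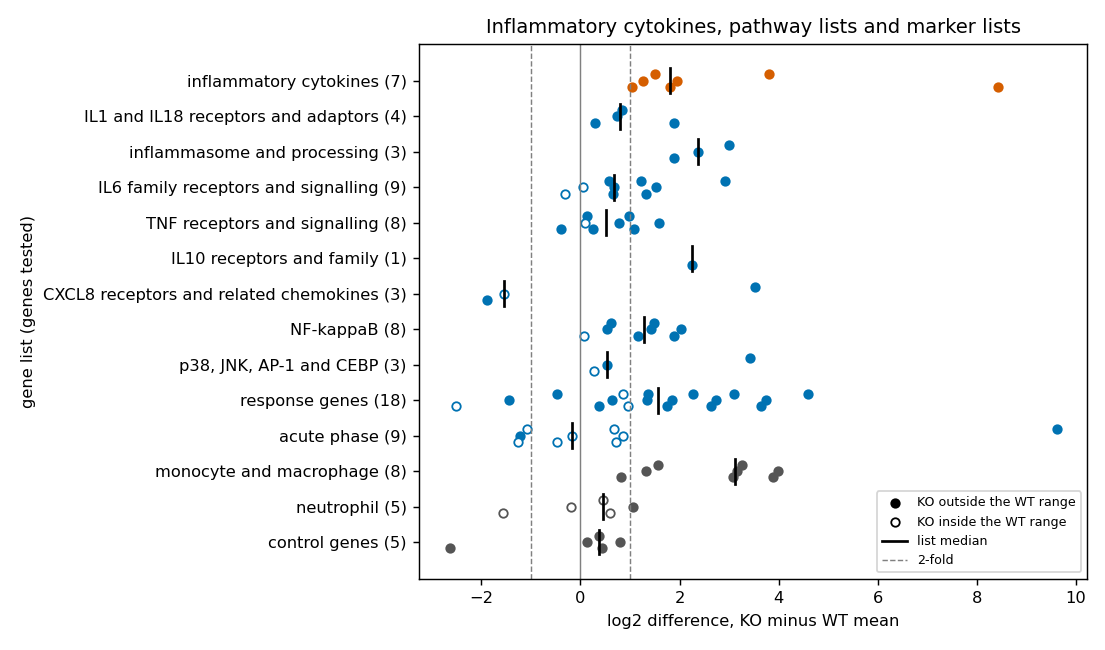
Log2 difference, KO minus the WT mean, of each tested gene in the cytokine group (orange), the pathway lists (blue) and 3 marker lists (grey), with list medians. Filled points have KO outside the WT range, which holds for all 7 cytokines and all 8 macrophage markers, and open points have it inside.

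Genes for maturing and releasing these cytokines were higher in KO. At least 2-fold above all WT arrays stood 3 of 3 measured, beside 7.34% of named genes. CASP1, the protease that cuts the IL1B and IL18 precursors, had log2 values of 1.76, 0.72 and 0.60 in WT and 4.02 in KO, which was higher by 2.99 (limma, adjusted p = 0.372). NLRP3, the sensor of its inflammasome, was -3.10, -3.69 and -2.99 in WT and -0.88 in KO, which was higher by 2.38 (limma, adjusted p = 0.342). ADAM17, which sheds TNF from the cell surface, differed by 1.89. The list covered 13 genes, so most of the machinery, including PYCARD and GSDMD, was not measured by name.

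Receptors and adaptors showed smaller differences. Of 16 genes of IL1 and IL18 reception 4 were measured and 4 were higher, with a median of 0.80, led by the adaptor MYD88 at 1.89 (limma, adjusted p = 0.428). IL18R1, a chain of the IL18 receptor, was dim, at -3.78, -4.32 and -4.23 in WT and -3.36 in KO. In the IL6 list, 8 of 9 measured genes were higher, with a median of 0.67. IL27, STAT3 and SOCS3, at 2.92, 1.53 and 1.32, were the 3 that stood at least 2-fold above all WT arrays. SOCS3, the feedback inhibitor of IL6 signalling, hardly varied in WT, at -3.57, -3.57 and -3.63, and read -2.27 in KO. The receptor chains differed less, with IL6ST at 0.67 and IL6R at 0.055, the latter inside the WT range and -0.40 within slide 1.

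Of 8 measured genes of TNF reception and signalling, 7 were higher, with a median of 0.52. TNFRSF1B, the receptor found mainly on leukocytes, differed by 1.59 and TNFRSF1A, the widely expressed receptor, by 0.79. LTA, a cytokine of lymphocytes in the TNF family, was -0.46, -0.77 and -0.50 in WT and -0.44 in KO, which was higher by 0.14. IL10RB, a chain of the IL10 receptor and the measured gene of its list of 7, was 0.016, -0.20 and -0.34 in WT and 2.08 in KO, which was higher by 2.26 (limma, adjusted p = 0.304). Of 9 genes listed around CXCL8, 3 were measured and both of its receptors had no named probe. CXCL2, a related neutrophil chemokine, was -0.62, -1.62 and -1.91 in WT and 2.14 in KO, which was higher by 3.52 (limma, adjusted p = 0.345). The platelet chemokine PPBP and the chemokine scavenger ACKR1 were lower, at differences of -1.53 and -1.88, with WT SDs of 3.44 and 1.63, and the list median of -1.53 became 2.17 within slide 1 and 0.0073 without WT 3.

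All 8 measured genes of the NF-κB list were above the WT mean (median difference 1.29), as were 54.7% of named genes. At least 2-fold above every WT array stood 3 of them, beside 7.34% of named genes. These were TNFAIP3 at 2.04, TNIP1 at 1.89 and NFKBIA at 1.42, which encode inhibitors of NF-κB signalling. NFKBIA read 5.75, 5.28 and 5.34 in WT and 6.88 in KO. NFKB1 differed by 1.49, RELA by 0.53 and CHUK by 0.068. In the list of AP-1 and CEBP factors, 3 were measured, and CEBPB, a factor that acts on the IL6 and IL1B promoters, was -2.15, -3.92 and -3.20 in WT and 0.33 in KO, which was higher by 3.42 (limma, adjusted p = 0.393). FOS and JUN, which respond quickly to tissue handling, differed by 0.54 and 0.27, with FOS above all WT arrays and JUN inside their range. The part of tissue handling in the values of this report was not tested.

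Response genes of these cytokines had a median of 1.56, with 15 of 18 higher and 10 at least 2-fold above all WT arrays. Of named genes, 54.7% were higher and 7.34% were at least 2-fold above all WT arrays. Among the 10 response genes, CSF2 was well above background on KO alone and so was tested because of its KO value. Over the 15 genes well above background on all arrays, the median was 1.37, with 13 higher and 8 at least 2-fold above all WT arrays. PTGS2, the inducible cyclooxygenase, was -2.09, -2.92 and -2.87 in WT and 1.97 in KO, which was higher by 4.60 ± 0.46 (SE) (limma, adjusted p = 0.284). TNFAIP6 differed by 3.65, IL15 by 2.74 and CCL4 by 2.63. The endothelial gene SELE, which IL1 and TNF induce, was well above background on 2 arrays, and its value was -2.38 in KO against -5.72, -7.03 and -5.65 in WT. Other responders did not share this. NOS2 had a difference of 0.87 that was -0.37 within slide 1, CSF3 was -0.47, and SELP, which platelets also carry, was -2.51 with a WT SD of 3.18. Of 9 measured acute phase genes 1 was outside and above the WT range, SAA3, which IL6 and IL1 induce, at -2.85, -3.91 and -4.20 in WT and 5.97 in KO. The list median was -0.16, and it was 0.84 within slide 1.

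The named genes whose pattern over the 4 arrays was most like that of each cytokine were found among 2431 other genes well above background on all arrays, by the root mean square difference after centring each gene on its own mean. This is a description over 4 arrays, and CXCL8 was left out because of its dim WT 3 spot. IL6 was most like SLA-DMA, CD86 and SLA-DQB1, genes of antigen presentation, with root mean square differences of 0.026, 0.050 and 0.055. IL10 was most like NFKB1, SLA-DQA1 and TLR8, at 0.035, 0.058 and 0.069. TNF was most like CD4, ICAM2 and CHI3L1, at 0.067, 0.095 and 0.11, and IL18 was most like TLR2, KMO and IFNGR2, at 0.060, 0.089 and 0.094. IL1A was most like DOK2, SORD and TYROBP, at 0.049, 0.073 and 0.075. The genes nearest to IL1B, CD163, TREM1 and C1QTNF3, were further off, at 0.41, 0.43 and 0.49. The values were not scaled, so this measure can grow with the size of a difference. That size was larger for IL1B than for the other cytokines compared here. TREM1, a receptor of monocytes and neutrophils, was -5.03, -4.54 and -4.58 in WT and -0.55 in KO.

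**Figure D5:**
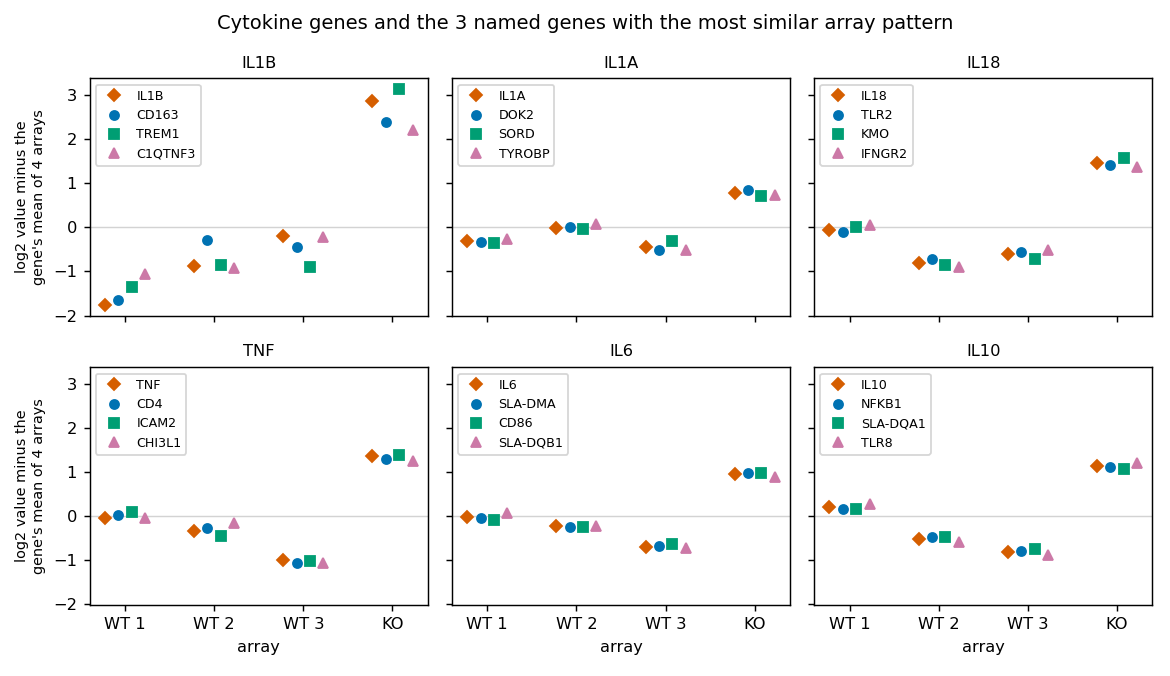
Log2 value of each cytokine gene and its 3 nearest genes on each array, after subtracting the gene's mean over the 4 arrays. The symbols lie close together for IL1A, IL18, TNF, IL6 and IL10, and further apart for IL1B.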

How the data were processed

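Total RNA of spleen was amplified by the authors, labelled with Cy3 and hybridised, 1 sample to an array, to an Agilent porcine 4x44K array. The deposited intensity values were extracted from 1 channel with Agilent software (Feature Extraction 11.0.1.1), while the study's methods describe a dye pair. The processed signal, background-corrected by that software, was used. The deposited log2 series table, whose columns were quantile-normalised as judged from their values, served as an alternative. The array files name no genome build, so no coordinates are given, and no probe sequences were available to print.

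Signals were transformed to log2, and the 75th percentile over probes other than controls was subtracted from each array. Outlier spots were left out, which removed 28 of 43603 probes, and 0 spots were saturated. Between 66.1% and 72.7% of spots were well above background. Probes well above background on at least 1 array were tested (33469 probes). Accessions were matched without versions to RefSeq transcripts of Sscrofa11.1, which named 6686 probes (15.3%). The brightest probe stood for a gene. KO and WT were compared with lmFit and eBayes of limma 3.58.1 (R 4.3.3), two-sided, with Benjamini-Hochberg adjustment over all probes tested, and 2 residual degrees of freedom, all from WT, so KO was assumed to vary like WT. An exact permutation test cannot go below 0.25. The fit was tested on simulated data. The small number of arrays limits precision.

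Genes were named by rule: all cytokine genes, for each pathway list the up to 4 genes furthest from WT among those where KO left the WT range by 2-fold and well above background on all arrays, and the 3 nearest patterns. Other genes named in the text, among them marker and response genes, were chosen after their values were seen. Some marker genes are not reported here by name. Members and lists were chosen with earlier results of these data known. Alternatives were other scalings, normexp (offset 50, on median signals, as the files hold no mean signal), filters, the slide as a block, eBayes settings, the methods' t-test and leaving out each WT array. Python 3.11.15, pandas 2.3.3, numpy 2.4.6 and matplotlib 3.10.9 were used.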

Additional observations from a re-analysis of the deposited data

How the results depend on the processing

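No paired analysis was possible because there was 1 KO array and its label carries no replicate number. Each cytokine gene kept its positive difference under every alternative that could be run, 100 values in all, and stayed short of the adjusted threshold in the 96 that had a test, with CXCL8 between 5.69 (normexp) and 8.79 (without WT 1) and IL1B between 3.41 (without WT 1) and 4.62 (slide as a block). Over those alternatives adjusted p values ran from 0.0548 to 0.980. CXCL8 is missing from the deposited table and from the fit of probes well above background on all arrays, since 1 of its WT spots was dim.

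The number of cytokine genes at least 2-fold above all WT arrays was 7 under the median shift, which raised the median of all probes to 0.13. It was between 4 and 6 when a WT array was left out, and a rule over fewer WT arrays is easier to meet. The share of all probes meeting this rule under those settings is not given here, so the higher counts cannot be set against it. The number with an unadjusted p under 0.05 and a 2-fold higher value, an alternative count added after seeing the data, was 4 with the slide as a block, 2 by the methods' t-test (IL18 and CXCL8), where 1.93% of all probes were called, and between 4 and 7 when a WT array was left out, the 7 being without WT 1, where 8.45% of all probes were called. Over all probes, 4 passed the adjusted threshold under normexp and 6 under eBayes with a trend, against 0 as reported. The methods' t-test without adjustment called 1333 probes at 2-fold, and without the fold rule 3054 probes had an unadjusted p under 0.05 by that test and 3775 by limma. After adjustment the t-test gave 0. The cause was not tested, other than for the t-test, whose count follows from its missing adjustment.

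Among list medians, the CXCL8 list was 2.17 with the slide as a block and between -2.81 and 0.0073 without a WT array. The acute phase list was 0.077 under the median shift, 0.84 with the slide as a block and between -0.42 and 0.088 without a WT array. The inflammasome list was 1.76 and the response list 1.03 under normexp, the IL10 list was 2.50 under the median shift and 2.07 with the block, and the NF-κB list was 0.76 with the block, and the cause was not tested.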
